A study of Mus musculus with 6 samples.

Results

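The B lineage transcription factors described here are 8 genes: Tcf3, Foxo1, Ebf1, Pax5, Pou2af1, Lef1, Bach2 and Irf4. They were chosen by name, in part because Ebf1 and Pax5 were high in multipotent progenitors (MPPs) of Bmi1 knockout (KO) mice, so the KO over wild-type (WT) values in MPPs are a description and were not tested. They are 8 of the 34797 gene names on the array, and every probe with one of these names was taken, which gave 13 of 55681 probes. A filter on dim probes kept 12 of the 13, covering all 8 genes, and 44640 probes in all.

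Each of 6 Agilent 2-colour arrays set RNA of a Bmi1 KO sample, labelled red with Cy5, against RNA of a WT sample, labelled green with Cy3. Of these arrays, 3 carried MPPs and 3 carried hematopoietic stem cells (HSCs), so the groups were KO MPPs, KO HSCs, WT MPPs and WT HSCs, with 3 samples each that the labels call biological replicates. All mice were 2 to 3 months old on a C57BL6 background, and cells were sorted by FACS before Trizol extraction; the sort markers, the Bmi1 allele and the number of animals per sample are not given in the sources used here. KO was always in red, so a dye effect of a probe cannot be told apart from genotype in any KO over WT ratio. Because each sample was bulk RNA, more cells of a B lineage type and more RNA per cell cannot be told apart either.

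Commitment of blood progenitors to the B lineage is driven by a layered set of transcription factors. Tcf3 encodes the E proteins E12 and E47, which with Foxo1 act upstream to switch on Ebf1; Ebf1 then specifies the B lineage and switches on Pax5, which commits cells to it and represses other fates. Pou2af1 is a coactivator of the octamer-binding factors in B cells, Lef1 is a partner of beta-catenin expressed in pro-B and T lineage cells, Bach2 is a repressor that restrains plasma cell and myeloid programmes, and Irf4 acts in pre-B cells and again in plasma cells. The protein made from Bmi1 belongs to Polycomb repressive complex 1, which keeps developmental regulators silent in stem and progenitor cells.

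In KO MPPs, Ebf1 had a mean ratio 36.8-fold above WT MPPs, the highest of all 44640 probes kept. Pax5 (15.1-fold and 3.73-fold by its 2 probes) and Lef1 (8.60-fold and 2.07-fold) were also above WT MPPs on all 3 MPP arrays. Foxo1 was 1.90-fold higher by its brighter probe, Pou2af1 was high on 2 of 3 arrays, and Tcf3, Bach2 and Irf4 lay close to the WT level or varied between arrays. In HSCs no member passed the test of KO against WT, and neither did any other of the 44640 probes kept.

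The start-site sequences of the members with the largest ratios, and of Foxo1, are shown because they are the stretches in which binding letters of the same factors were searched. They come from RefSeq on build GRCm38.p6, run from 250 bases before to 50 after an annotated start, and read 5′ to 3′ on the strand of the gene. The table held 12 such windows for the 8 members, all of which matched by symbol. Capitals mark E boxes, the CANNTG hexamer bound by E proteins such as those of Tcf3, and in Foxo1 the 10-base EBF sequence.
Ebf1, upstream start, chr11:44617850-44618149, plus strand: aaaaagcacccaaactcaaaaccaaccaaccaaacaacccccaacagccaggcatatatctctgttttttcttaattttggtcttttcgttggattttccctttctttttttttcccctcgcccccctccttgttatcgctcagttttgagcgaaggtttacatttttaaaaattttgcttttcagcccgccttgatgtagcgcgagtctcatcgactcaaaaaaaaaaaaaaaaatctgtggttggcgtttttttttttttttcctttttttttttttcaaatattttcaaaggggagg
Ebf1, downstream start, chr11:44619978-44620277, plus strand: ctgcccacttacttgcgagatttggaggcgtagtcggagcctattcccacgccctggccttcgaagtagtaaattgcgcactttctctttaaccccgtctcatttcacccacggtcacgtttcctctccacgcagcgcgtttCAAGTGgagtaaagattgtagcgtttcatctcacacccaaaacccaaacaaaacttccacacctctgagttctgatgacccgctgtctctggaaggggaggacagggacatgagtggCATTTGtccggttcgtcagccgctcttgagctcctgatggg
Pax5, chr4:44710645-44710944, minus strand: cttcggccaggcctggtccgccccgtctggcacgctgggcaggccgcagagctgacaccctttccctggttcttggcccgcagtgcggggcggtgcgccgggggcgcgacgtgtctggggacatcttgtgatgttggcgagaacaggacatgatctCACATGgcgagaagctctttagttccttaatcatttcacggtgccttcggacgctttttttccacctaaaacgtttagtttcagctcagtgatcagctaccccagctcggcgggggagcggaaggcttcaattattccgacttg
Lef1, first start, chr3:131110047-131110346, plus strand: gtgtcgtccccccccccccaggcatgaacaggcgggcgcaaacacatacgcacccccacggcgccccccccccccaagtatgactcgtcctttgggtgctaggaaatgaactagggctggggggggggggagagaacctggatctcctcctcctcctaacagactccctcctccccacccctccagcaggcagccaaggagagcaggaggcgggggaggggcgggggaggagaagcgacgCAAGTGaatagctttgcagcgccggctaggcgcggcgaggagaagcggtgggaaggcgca
Pou2af1, chr9:51213440-51213739, plus strand: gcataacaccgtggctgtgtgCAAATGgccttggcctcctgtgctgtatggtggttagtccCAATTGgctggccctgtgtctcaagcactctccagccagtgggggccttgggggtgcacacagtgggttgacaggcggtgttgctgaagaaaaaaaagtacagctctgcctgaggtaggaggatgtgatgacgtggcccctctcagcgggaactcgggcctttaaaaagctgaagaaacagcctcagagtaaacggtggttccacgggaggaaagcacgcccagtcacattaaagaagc
Foxo1, chr3:52268087-52268386, plus strand: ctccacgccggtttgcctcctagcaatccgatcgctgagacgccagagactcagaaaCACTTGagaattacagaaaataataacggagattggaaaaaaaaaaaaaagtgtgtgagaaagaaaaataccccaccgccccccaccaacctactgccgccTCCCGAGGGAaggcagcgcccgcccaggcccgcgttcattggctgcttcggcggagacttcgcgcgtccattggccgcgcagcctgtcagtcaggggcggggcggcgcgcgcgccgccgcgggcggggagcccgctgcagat

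The E box was found in 10 of the 12 member windows, against 72.3% of all 32851 start-site windows in the table, and the tighter E protein form CAGGTG in 1, a window of Lef1, against 20.2% of all. The palindrome bound by EBF1, TCCC and GGGA set 2 bases apart, was found in 1 window, that of Foxo1, as TCCCGAGGGA 92 bases before the start; 0.904% of all windows held it. Neither the octamer ATGCAAAT, read through Pou2af1 and its partners, nor CTTTGAT, read by LEF1, nor TGTTTAC, read by FOXO factors, occurred in any member window. These were held by 1.74%, 3.73% and 3.65% of all windows. Both strands were searched, and CAGGTG is by its letters also an E box. The Lef1 windows that start at 131110047 and 131110073 overlap and hold the same CAAGTG, so the 12 windows were not separate observations. The windows differed in composition, with a GC content of 36.7% at the upstream Ebf1 start and 53.0% at the downstream one, 59.0% at Pax5 and 67.3% at the first Lef1 start, against a median of 52.7% over all windows.

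The 2 Pax5 probes are also shown, because they measured different stretches of the transcript and gave ratios of different size. Each is 60 bases long, with positions on mm9 as in the files, and the second spans 32555 bases of the genome, so that its bases come from separate exons.
Pax5 A_55_P2126394, chr4:44658421-44658480, minus strand: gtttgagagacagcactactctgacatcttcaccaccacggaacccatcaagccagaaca
Pax5 A_51_P122855, chr4:44550354-44582908, minus strand: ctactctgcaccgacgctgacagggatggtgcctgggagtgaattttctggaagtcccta

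The median spot signal lay between 379 and 581 in red (KO) and between 124 and 206 in green (WT), and 78.8% to 83.9% of spots in red and 72.5% to 82.2% in green were well above background. Over all probes kept, the ratios of replicate arrays hardly went together, with r from -0.01 to 0.20 among MPP arrays and from -0.07 to 0.08 among HSC arrays, and the WT levels of HSC 1 were closer to MPP 1 (r = 0.92) than to HSC 2 or 3 (r = 0.87 each). With 3 arrays per population, precision is limited by their number. The 4 arrays of slide row 1 were the HSC arrays and MPP 1, and row 2 held MPP 2 and 3. Bmi1 itself was not lower on the MPP arrays. On its brighter probe (A_55_P2170335) the log2 KO over WT ratio was 0.23, -0.69 and 0.48 on MPP 1, 2 and 3 and -0.39, -2.42 and -0.50 on HSC 1, 2 and 3, and on the other (A_52_P39157) 0.93, 0.70 and -0.05 on the MPP arrays and 0.11, -1.66 and 1.36 on the HSC arrays. Which part of the gene the KO lacks is not given in the sources used here, so these probes may lie outside it and do not check the labels, and KO below means the samples so labelled. Of 13 HSC and MPP marker genes, 1 was called between the populations within the WT channel. This was Flt3, a receptor gained in MPPs, which averaged 13.6 in WT MPPs and 10.5 in WT HSCs on the log2 level scale (difference 3.03, limma adjusted p = 0.0289). That call was lost in 9 of 14 other settings, among them each that left out an array. In the same comparison, MPPs minus HSCs, Cd48 differed by 4.36 and Slamf1, an HSC marker, by -2.58, neither called (adjusted p = 0.156 and 0.245).

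All ratios below are log2 of KO over WT within an array. Levels are log2 signals normalized within 1 dye, so that a level of KO MPPs may be set against one of KO HSCs, and one of WT MPPs against one of WT HSCs, but not across dyes or across probes.

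**Figure D1:**
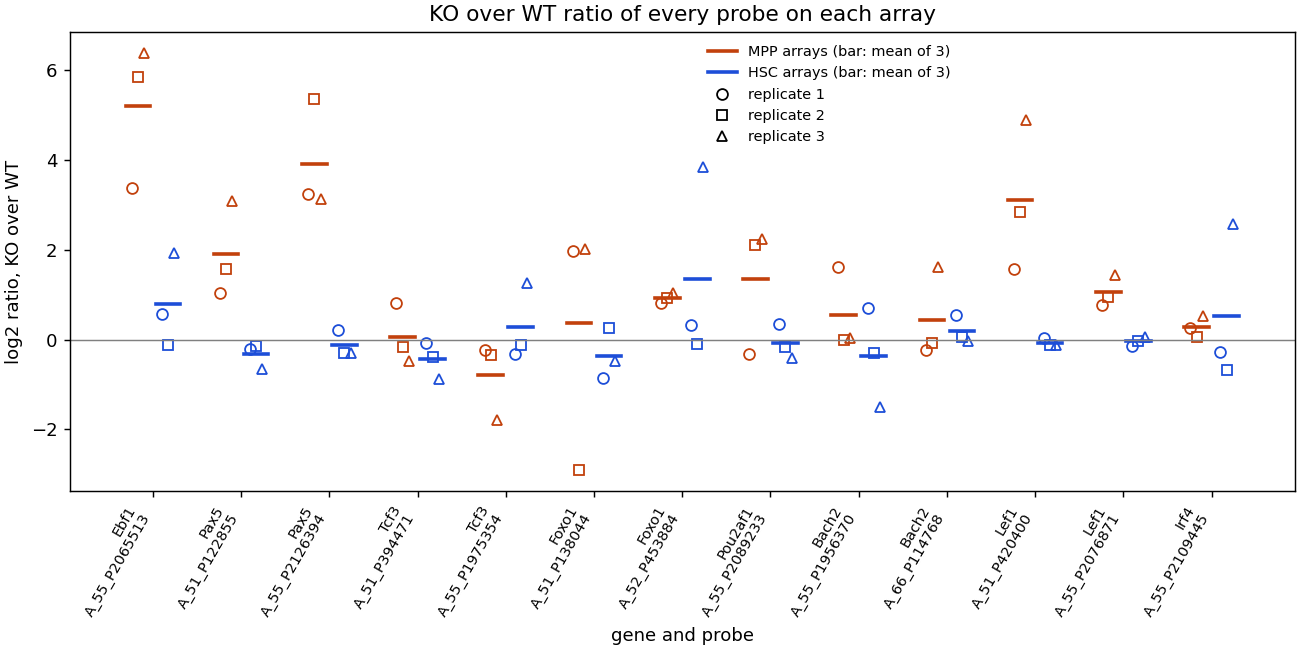
Log2 KO over WT ratio (vertical axis) of each of the 13 member probes (horizontal axis) on each array, with MPP arrays in orange left of HSC arrays in blue, replicates 1 to 3 as circle, square and triangle, and a bar at the mean of 3. The Ebf1, Pax5 and Lef1 ratios on MPP arrays lie above 0 on all 3 arrays, while the HSC arrays scatter around 0 with high single values on HSC 3 for Ebf1, Foxo1 and Irf4.

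Among the upstream factors, Tcf3 was brightly expressed in every group. Its probe A_55_P1975354 (chromosome 10, 79875963 to 79876022, minus strand) gave ratios of -0.23, -0.34 and -1.80 on MPP 1, 2 and 3 and of -0.31, -0.12 and 1.27 on HSC 1, 2 and 3. The MPP ratios were thus all below 0, with MPP 3 apart from the other two, and the populations overlapped. Its other probe (A_51_P394471, 79872639 to 79872698) gave 0.81, -0.17 and -0.47 on the MPP arrays and -0.07, -0.39 and -0.87 on the HSC arrays. The probes therefore had mean ratios of different sign in MPPs, -0.79 ± 0.88 and 0.06 ± 0.67, and again in HSCs, 0.28 ± 0.86 and -0.44 ± 0.40 (SD, n = 3 each). The probes were annotated to different Tcf3 transcripts in the files. Within the red dye, A_51_P394471 averaged 13.1 ± 0.06 in KO MPPs and 12.0 ± 0.30 in KO HSCs, without overlap.

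Foxo1, a forkhead factor needed for Ebf1 and recombinase expression, was measured by 2 probes on chromosome 3. The brighter one (A_52_P453884, 52153289 to 52153348) gave the tightest set of MPP ratios of any member, 0.82, 0.93 and 1.04, with a mean of 0.93 ± 0.11 (SD, n = 3). On the HSC arrays it gave 0.32, -0.11 and 3.85. The last value stands apart: on HSC 3 the WT level was 6.06, not well above background, against 10.1 and 11.5 in the WT channel of HSC 1 and 2, whereas the KO levels were 11.8, 12.7 and 11.1. Without HSC 3 the mean HSC ratio was 0.11, in place of 1.35. The dimmer probe (A_51_P138044, 52150183 to 52150242) did not repeat the narrow MPP result, with ratios of 1.98, -2.91 and 2.01 on MPP 1, 2 and 3. On the HSC arrays its ratios were -0.86, 0.25 and -0.47. On HSC 2 it was not well above background in either channel.

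Ebf1 was measured by 1 probe (A_55_P2065513, chromosome 11, 44818438 to 44818497, plus strand). Its level in KO MPPs was 12.1, 13.7 and 14.5, and in KO HSCs 7.12, 7.36 and 9.29. The red levels thus did not overlap between the populations, and the lowest KO MPP sample stood well above KO HSC 3, the highest KO HSC sample. In the WT channel it was 7.23, 6.88 and 7.15 in MPPs and 5.99, 6.55 and 6.21 in HSCs. These WT levels are near the floor of the scale: the probe was well above background in 3 of 3 WT MPP samples and in 1 of 3 WT HSC samples.

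The log2 ratios of Ebf1 followed the red levels, with 3.39, 5.84 and 6.38 on MPP 1, 2 and 3 and a mean of 5.20 ± 1.60 (SD, n = 3). On the HSC arrays they were 0.58, -0.11 and 1.93, so that all MPP ratios lay above all HSC ratios. The smallest MPP ratio came from the 1 MPP array in slide row 1 (3.39), while the arrays of row 2 averaged 6.11. The KO level of 12.1 on MPP 1 and the 3 KO HSC levels below it were all from row 1. That comparison rests on 1 MPP array, and the part of the row in the Ebf1 ratios cannot be told apart from the sample.

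Pax5, the factor that commits cells to the B lineage, showed the same order on both probes printed above. By A_55_P2126394 its level was 13.0, 14.4 and 14.8 in KO MPPs and 9.76, 9.95 and 9.25 in KO HSCs. In the WT channel the level was 8.25, 8.04 and 10.3 in MPPs and 8.09, 8.91 and 8.30 in HSCs. The KO populations did not overlap, and the WT populations did, with WT MPP 3 the highest WT sample. The log2 ratios were 3.24, 5.36 and 3.13 on the MPP arrays (mean 3.91 ± 1.26, SD, n = 3) and 0.22, -0.30 and -0.30 on the HSC arrays.

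By the exon-spanning probe A_51_P122855 the Pax5 ratios were 1.04, 1.56 and 3.09 on the MPP arrays and -0.21, -0.13 and -0.65 on the HSC arrays. All MPP arrays were above 0 and all HSC arrays below it, the HSC mean being -0.33, or -0.04 with ratios median-centred in place of the loess curve. The mean MPP ratio, 1.90 ± 1.06 (SD, n = 3), was smaller than that of the other probe, and MPP 2, highest on one probe, was not the highest on the other. Its red level averaged 10.9 ± 0.84 in KO MPPs and 8.90 ± 0.56 in KO HSCs, again without overlap.

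**Figure D2:**
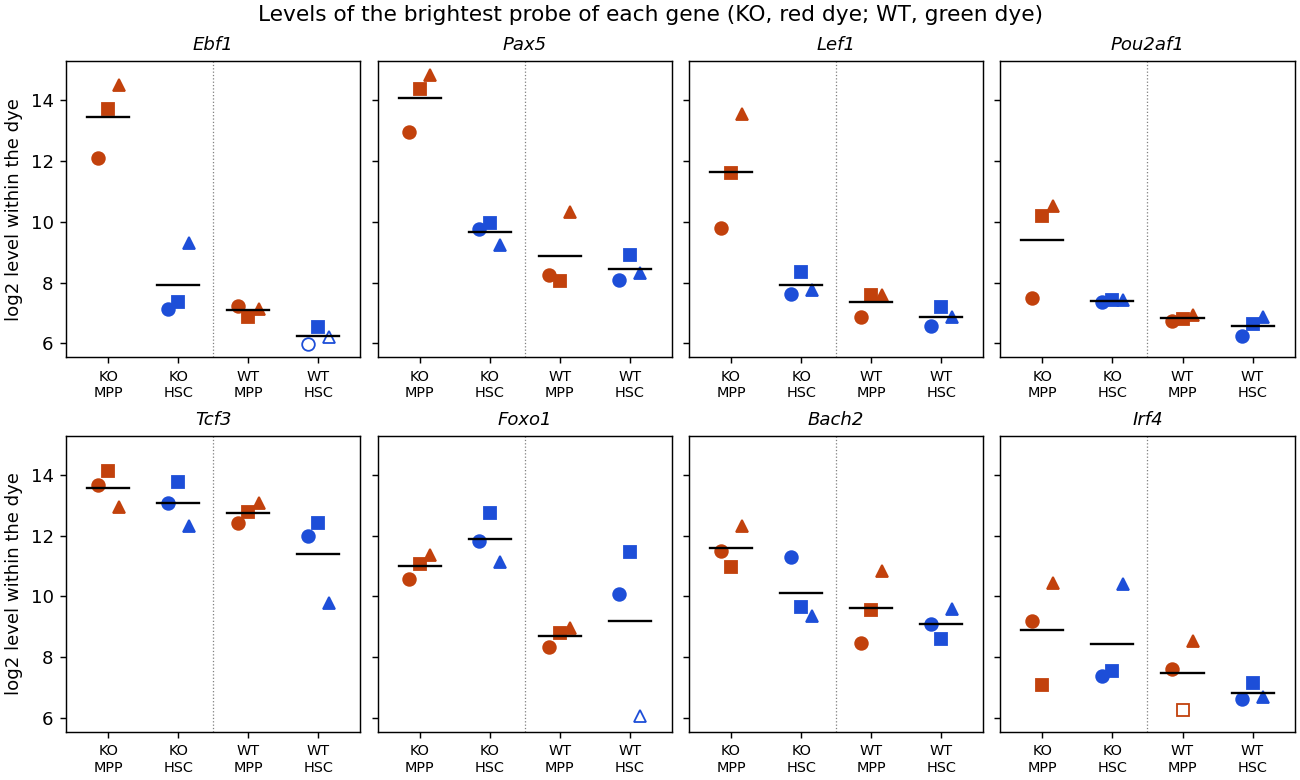
Log2 level within the dye (vertical axis) of the brightest probe of each member in KO MPPs, KO HSCs, WT MPPs and WT HSCs, with replicates 1 to 3 as circle, square and triangle, open symbols where the probe was not well above background, and a bar at the mean of 3. The dotted line separates the red dye (KO) from the green dye (WT), whose levels are not comparable. Ebf1, Pax5, Lef1 and Pou2af1 in KO MPPs lie above all 3 KO HSC samples, while in the WT channel Ebf1 is the only gene of the 8 whose MPP and HSC levels do not overlap.

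Pou2af1, the octamer coactivator (A_55_P2089233, chromosome 9, 51048121 to 51048180, plus strand), split the MPP arrays. Its KO level was 7.50, 10.2 and 10.5 in MPPs and 7.37, 7.43 and 7.42 in HSCs. In the WT channel it was 6.75, 6.80 and 6.94 in MPPs and 6.23, 6.63 and 6.88 in HSCs. KO MPP 1 was thus barely above the KO HSC samples, and KO MPP 2 and 3 far above them. The ratios were -0.32, 2.11 and 2.24 on the MPP arrays, with a mean of 1.34 ± 1.44 (SD, n = 3), and 0.34, -0.16 and -0.42 on the HSC arrays. The split of the MPP arrays is also that of slide rows 1 and 2, and the part of the row in it cannot be told apart from the sample.

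Lef1 was high in KO MPPs by both probes on chromosome 3. By the brighter probe (A_51_P420400, 130907851 to 130926012, plus strand, spanning 18162 bases) its level was 9.79, 11.6 and 13.5 in KO MPPs and 7.64, 8.33 and 7.77 in KO HSCs. In the WT channel it was 6.87, 7.60 and 7.59 in MPPs and 6.56, 7.20 and 6.87 in HSCs. The KO levels were separated by population and the WT levels overlapped. Ratios were 1.58, 2.85 and 4.89 on the MPP arrays (mean 3.10 ± 1.67, SD, n = 3) and 0.04, -0.12 and -0.13 on the HSC arrays.

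The dimmer Lef1 probe (A_55_P2076871, 130926200 to 130926259) gave smaller ratios in the same order of arrays, 0.76, 0.94 and 1.45 on MPP 1, 2 and 3. On HSC 1, 2 and 3 its ratios were -0.15, -0.04 and 0.06. On HSC 3 it was not well above background in either channel. By the scanner's own processed values its MPP mean was 2.07, in place of 1.05.

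Bach2 did not move one way. Its brighter probe (A_55_P1956370, chromosome 4, 32588782 to 32588841, plus strand) gave ratios of 1.62, -0.01 and 0.04 on the MPP arrays and 0.69, -0.29 and -1.51 on the HSC arrays. MPP 1 therefore carried the MPP mean of 0.55, which was 0.02 without that array. The other Bach2 probe (A_66_P114768, 32673009 to 32673068) was dim, well above background in 2 of 3 KO MPP, 1 of 3 KO HSC, 1 of 3 WT MPP and 0 of 3 WT HSC samples. It was not kept by the filter, and its ratios were -0.24, -0.09 and 1.62 on the MPP arrays and 0.56, 0.05 and -0.03 on the HSC arrays.

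Irf4 (A_55_P2109445, chromosome 13, 30858532 to 30858591, plus strand) had small positive ratios on all MPP arrays, 0.26, 0.06 and 0.51. Its WT level on MPP 2 was not well above background. On the HSC arrays its ratios were -0.29, -0.69 and 2.57. HSC 3 again stood apart, as it did for Foxo1, Ebf1 and one Tcf3 probe, and without it the mean Irf4 ratio in HSCs was -0.49 in place of 0.53.

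Over the 13 probes together, the mean MPP ratio was positive for 12, and 7 were above 0 on all 3 MPP arrays, where 14.4% of all probes kept were. A mean log2 ratio of at least 1 in MPPs was reached by 6 of the 13, against 3.09% of all probes kept, and the median of the 13 was 0.93, against 0.00 over all probes. Among all kept probes the 6 ranked 1 (Ebf1), 4 and 94 (Pax5), 13 and 1193 (Lef1) and 526 (Pou2af1). The ratio in MPPs helped choose the members, so these counts describe them and support nothing further. In HSCs 5 of the 13 mean ratios were positive, with 0 above 0 on all 3 arrays and 2 below, against 13.2% and 13.6% of all probes kept, and the median was -0.07. All 3 MPP ratios lay above all 3 HSC ratios for 5 of the 13 (Ebf1, both Pax5 and both Lef1 probes), where 3.95% of all probes kept did.

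**Figure D3:**
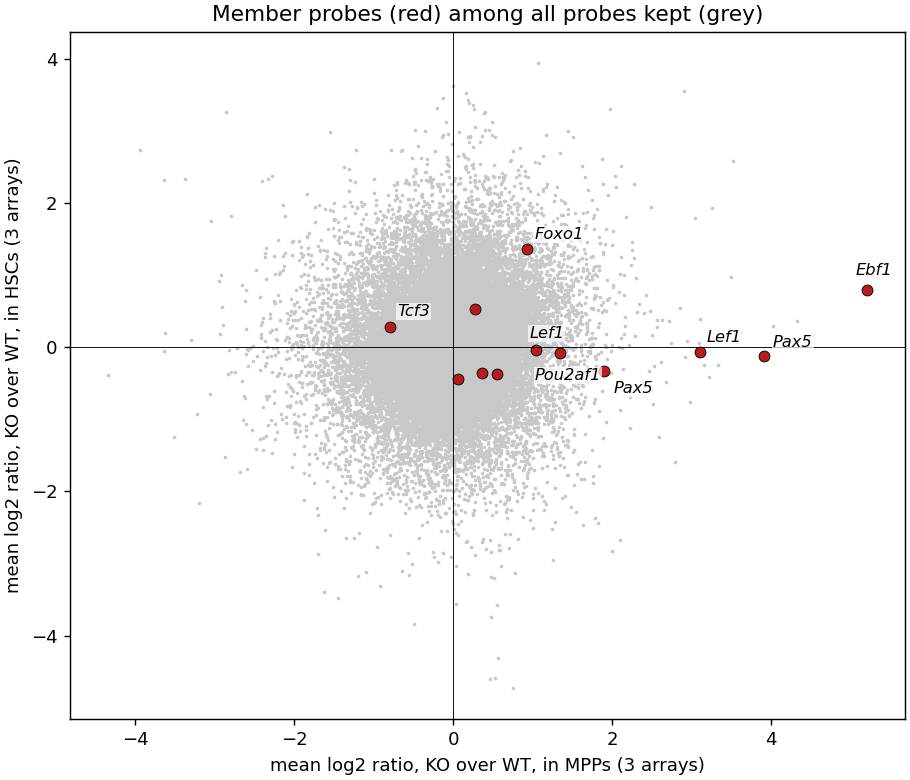
Mean log2 KO over WT ratio on the 3 MPP arrays (horizontal axis) against that on the 3 HSC arrays (vertical axis) for all 44640 probes kept, in grey, with the 12 member probes kept in red. Ebf1 at 5.20, Pax5 at 3.91 and Lef1 at 3.10 lie at the right edge of the cloud and within 0.80 of 0 on the HSC axis.

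The HSC ratios did not enter the choice of members, and each probe was tested for KO against WT in HSCs. The test took a common spread per probe from the HSC and MPP arrays together. Each SE, p-value and interval below therefore also carries the scatter of the MPP ratios, which helped choose the members. Across all 44640 probes, 0 passed limma's test at a Benjamini-Hochberg adjusted p under 0.05 (percent called 0), while 3278 (7.34%) had an unadjusted p under 0.05. Of the 12 member probes kept, 0 passed either threshold. Ebf1 had a mean ratio of 0.80 ± 0.65 (SE, n = 3) and an adjusted p of 0.764, with a 95% interval of -0.77 to 2.37.

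The Pax5 probes had mean HSC ratios of -0.12 and -0.33 (adjusted p = 0.958 and 0.844). Their intervals ran from -1.25 to 1.00 and from -1.33 to 0.66. For Lef1 the brighter probe was at -0.07 (-1.47 to 1.33, adjusted p = 0.984). The ratios of this probe had an SD of 0.095 on the HSC arrays and 1.67 on the MPP arrays. Pou2af1 was at -0.08 (-1.35 to 1.19, adjusted p = 0.979). These small HSC means had no stable sign: with median-centred ratios Pax5 A_55_P2126394 stood at 0.21, Lef1 A_51_P420400 at 0.0088 and Tcf3 A_51_P394471 at 0.019.

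Foxo1 A_51_P138044 had the widest interval of the member probes tested, -2.67 to 1.95 (mean -0.36 ± 0.96, SE, adjusted p = 0.937). That width carries the scatter of its MPP ratios, with an SD of 2.83, against 0.57 on the HSC arrays. The SD on the HSC arrays was larger for Foxo1 A_52_P453884 (2.17) and Irf4 (1.77). HSC 3 was the high array for these 2 probes. Foxo1 A_52_P453884 stood at 1.35 ± 0.73 (SE) with an interval of -0.42 to 3.13 and an adjusted p of 0.699, and Irf4 at 0.53 ± 0.61 with an interval of -0.95 to 2.02 and an adjusted p of 0.831. Ebf1 averaged 0.23 without HSC 3, and 1.78 with the scanner's processed values. The lowest adjusted p of any member in HSCs, over the other settings run, was 0.320.

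The order within the WT animals was asked in the green channel, WT MPPs against WT HSCs, where 126 of 44640 probes were called by limma (0.282%), 100 higher (0.224%) and 26 lower (0.0582%). No probe of the 6 members other than Ebf1 and Pax5 was called. Of all 12 kept member probes 10 were higher in WT MPPs, where 19654 of all 44640 probes kept were. The median difference was 0.46, against -0.08 over all probes. This count and median include the Ebf1 and Pax5 probes, so they are a description and were not tested. Tcf3 differed by 1.36 ± 0.70 (SE, n = 3 and 3, adjusted p = 0.429) by A_55_P1975354 and by 0.48 ± 0.39 (adjusted p = 0.601) by A_51_P394471. Without HSC 3, whose WT level was 9.77 against 12.0 and 12.4 in HSC 1 and 2, the first of these was 0.55. Lef1 differed by 0.48 ± 0.32 (adjusted p = 0.527), Pou2af1 by 0.25 ± 0.26 (adjusted p = 0.687) and Irf4 by 0.65 ± 0.58 (adjusted p = 0.629). Ebf1 differed by 0.84 and Pax5 by 0.44 and -0.19, values given without a test because the WT MPP level is part of the ratio that chose them. With the scanner's processed values the Ebf1 difference was 2.34.

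The number of calls in this comparison depended on the samples used: leaving out HSC 1, HSC 3 or MPP 3 left 0, HSC 2 left 34, MPP 1 left 5 and MPP 2 left 105. With the slide row as a term the difference for Lef1 A_51_P420400 was -0.011. No HSC array lay in row 2, so this difference sets MPP 1 alone against the HSC arrays. Within the KO animals the step from HSCs to MPPs was read in the red dye. Its size is not comparable with that of the WT step, which was read in green. KO MPPs lay above KO HSCs without overlap for 7 of the 13 probes (Ebf1, both Pax5, both Lef1, Pou2af1 and Tcf3 A_51_P394471), where 8.36% of all probes kept did. WT MPPs lay above WT HSCs without overlap for 1 of the 13, Ebf1, where 8.24% of all probes kept did. The KO step was 5.51 for Ebf1, 4.40 and 2.05 for the Pax5 probes, 3.73 and 1.80 for Lef1 and 1.99 for Pou2af1, and it was not tested because it shares the KO MPP samples with the ratio that chose the members.

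Genes that Ebf1, Pax5 and the E proteins are known to switch on in B cell precursors were read from a list of 16, of which 15 were kept. On the MPP arrays 13 of 15 had a positive mean ratio, 9 of them on all 3 arrays, with a median of 0.91. Of all 44640 probes kept, 22138 had a positive mean ratio and 14.4% were above 0 on all 3 arrays. A mean of at least 1 was reached by 6 of the 15, against 3.09% of all probes kept. Cd22, Cplx2, Ly6d and Blnk averaged 0.006, 0.01, 0.08 and 0.18, and Cd72 and Btk averaged -0.11 and -0.33. The array medians were 0.10, 1.11 and 1.58 on MPP 1, 2 and 3, so that MPP 1 was the lowest, as it was for Ebf1, Lef1 and Pou2af1. These ratios share their contrast with the choice of members and were not tested.

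The surrogate light chain genes Vpreb1 and Igll1 stood highest in that list. Vpreb1 had ratios of 1.60, 4.90 and 6.49 on MPP 1, 2 and 3 (mean 4.33), and Igll1 had 2.44, 5.15 and 4.50 (mean 4.03). Cd79a, the signalling chain of the B cell receptor and a target of Ebf1 and Pax5, had 1.18, 2.56 and 5.18 (mean 2.98). These Cd79a values are from A_66_P120987, the brighter of its 2 probes kept. On the HSC arrays Vpreb1, Igll1 and this Cd79a probe averaged 0.36, 0.29 and -0.76, none called, and over the list 7 of 15 were positive with a median of -0.12. The other Cd79a probe (A_55_P2137496) had 1.81, 3.09 and 3.26 on the MPP arrays and averaged 0.36 on the HSC arrays.

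The genes for V(D)J recombination and the IL-7 receptor all had positive mean ratios in MPPs, 6 of 6, with a median of 0.72. Rag1 had ratios of 1.37, 4.02 and 3.95 (mean 3.11) and Rag2 of 0.45, 2.55 and 2.25 (mean 1.75), while Dntt, the terminal transferase of early lymphoid cells, averaged 0.10 and Il7r 0.38. Xrcc5 and Lig4, both end-joining genes of all cells, averaged 0.63 and 0.82. In HSCs 3 of 6 were positive and 0 were called. In the WT channel Rag2 was at least 7.57-fold higher in MPPs than in HSCs, a bound that was not tested. A bound is given because Rag2 was well above background in 3 of 3 WT MPP and 0 of 3 WT HSC samples. The bound sets the mean level of WT MPPs against the lowest signal well above background on each HSC array. The test was on the measured means, 9.03 and 5.92 (difference 3.10, limma adjusted p = 0.0218). Dntt was higher by 2.76 in WT MPPs (adjusted p = 0.0490). These calls were lost in 7 of 13 other settings for Rag2 and 11 of 14 for Dntt, including each one that left out an HSC array.

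**Figure D4:**
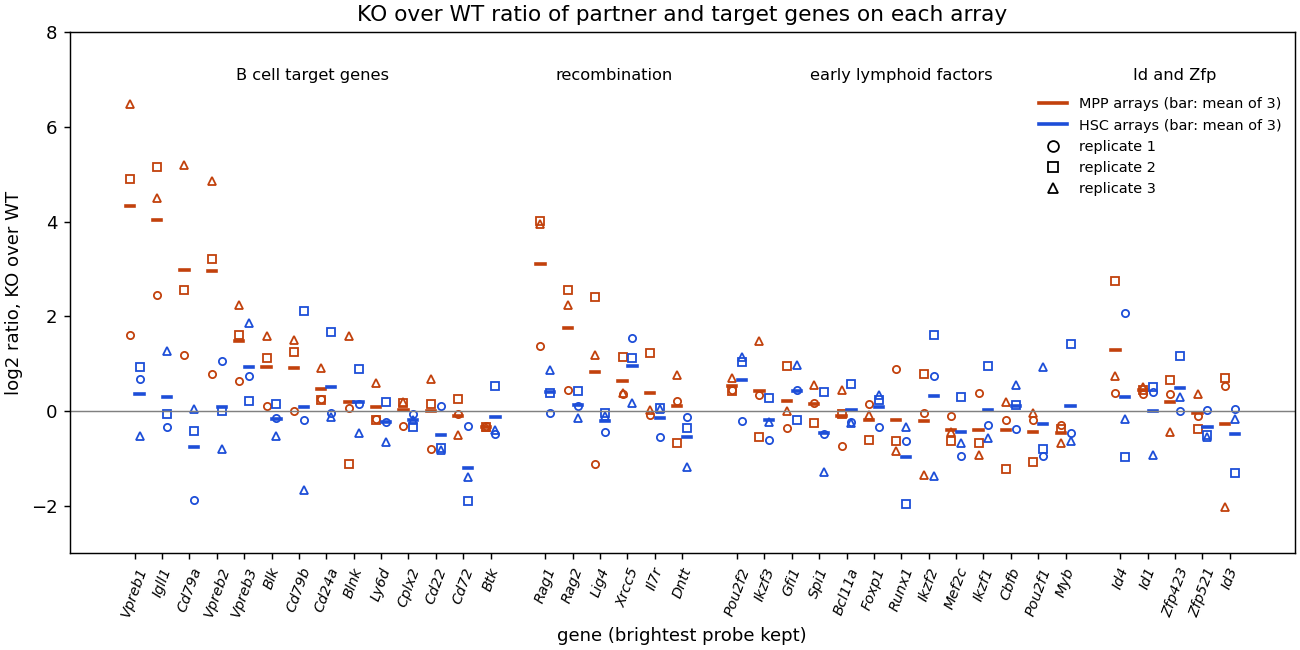
Log2 KO over WT ratio (vertical axis) on each array for the brightest kept probe of genes in 4 lists (horizontal axis), with MPP arrays in orange left of HSC arrays in blue, replicates as in the plot of member ratios, and a bar at the mean of 3. Vpreb1, Igll1, Cd79a, Vpreb2 and Rag1 are above 0 on all 3 MPP arrays, while the early lymphoid factors, Id genes and zinc finger genes have MPP means between -0.46 and 1.29.

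Other regulators of the same pathway did not share the pattern. Of 13 kept early lymphoid transcription factors 4 had a positive MPP mean, with a median of -0.20. Ikzf1, the Ikaros gene that primes lymphoid genes, had ratios of 0.38, -0.68 and -0.93, and Spi1, the PU.1 gene, 0.16, -0.26 and 0.54. Pou2f2, the octamer factor that Pou2af1 binds, had 0.44, 0.41 and 0.70. Paralogues of the members were positive for 5 of 12 kept (median -0.08), and only Irf8, at 0.60, 3.31 and 0.45, averaged over 1. Ebf2 was listed well above background in 0 of 3 WT MPP samples, Ebf4 averaged 0.09, and the E proteins Tcf4 and Tcf12 averaged -0.18 and -0.42.

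Antagonists of E proteins and of Ebf1 were listed too. Id1 had ratios of 0.35, 0.45 and 0.51 on the MPP arrays and Id3 of 0.53, 0.69 and -2.03. Id4 had ratios of 0.38, 2.74 and 0.73, with MPP 2 apart from the other arrays. It was well above background in 3 of 3 KO MPP and 0 of 3 WT MPP samples, and the mean KO level against the floor of the WT arrays gave at least 2.26-fold. Zfp521 and Zfp423, zinc finger proteins that bind Ebf1, averaged -0.05 and 0.19, and Id2 was not kept. Among plasma cell genes, Prdm1, Xbp1 and Sdc1 averaged 0.43, 0.85 and 0.20 and Jchain -1.03.

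Among the members, the ratio of Ebf1 over the 6 arrays went with those of Lef1 (r = 0.93 and 0.95), Pax5 (r = 0.89 and 0.87) and Pou2af1 (r = 0.82), and with the other 7 probes r ran from -0.56 to 0.39. These coefficients are descriptions over 6 arrays that fall into 3 MPP and 3 HSC arrays, so most of each is the step between the populations. By the same measure, the genes most like Ebf1 among 1380 probes with a mean MPP ratio of at least 1 were Igll1 (0.981), Cecr2 (0.980), Cd79a (0.978), Aifm1 (0.976) and Txndc17 (0.975). The Cd79a value is from its dimmer probe, A_55_P2137496. Those most like Pax5 were Aven (0.981), Thumpd1 (0.973), Pde9a (0.971), D19Wsu162e (0.969) and Bfsp2 (0.961). Aven averaged 2.09 on the MPP arrays and -2.67 on the HSC arrays, where Pax5 averaged 3.91 and -0.12.

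Markers of other cells on the same MPP arrays are given beside these results. T and NK cell markers had a positive mean ratio for 4 of 12 (median -0.11), myeloid markers for 3 of 9 (median -0.35), plasmacytoid dendritic cell markers for 3 of 6 (median 0.15) and HSC and MPP markers for 3 of 13 (median -0.41). Of the plasmacytoid dendritic cell genes, Siglech averaged 0.35, Bst2 -0.05, Ccr9 -0.63 and Cd300c 0.61, beside Irf8 and Tcf4 above. Erythroid markers had a positive mean ratio for 4 of 7 (median 0.50). Of the 7, 4 were above 0 on all 3 MPP arrays, where 14.4% of all probes kept were. A mean of at least 1 was reached by 3 of the 7, against 3.09% of all probes kept. These were Hba-a1 at 0.71, 6.31 and 3.84, Hbb-b1 at 2.14, 2.96 and 0.51, and Tfrc at 0.45, 1.08 and 2.67. The erythroid genes with a negative mean were Klf1 (-0.50), Epor (-0.33) and Car1 (-0.64). The myeloid genes with a positive mean were S100a9 (1.66), S100a8 (0.92) and Ctsg (0.29). The mean level of the B cell gene list was 11.8 to 13.4 over the KO MPP samples, 10.8 to 11.0 in KO HSCs, 9.78 to 9.82 in WT MPPs and 9.42 to 9.97 in WT HSCs. That of the erythroid list was 10.4 to 11.6 in KO MPPs, 9.54 to 10.3 in KO HSCs, 8.08 to 9.64 in WT MPPs and 8.66 to 10.4 in WT HSCs. None of these defining markers was at 0, since the scale has a floor, and the part of other cells in the member ratios was not tested.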

How the data were processed

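RNA of sorted KO and WT MPPs and HSCs was measured on 6 arrays. Per the file headers, the authors' scans were read with Agilent Feature Extraction 10.7.3.1, where version 8.5.1.1 stands in the submitters' processing notes. The deposited files give spot and background intensity in both dyes, 0 or 1 marks for spots, and a log10 ratio of red over green, repeated in the series table. Mean intensities were background-corrected (normexp, offset 50, limma 3.58.1, R 4.3.3) and log2 ratios loess-normalized within arrays. Control and marked spots had weight 0, marked spots were dropped and spots of a probe averaged. A probe was kept if well above background on all 3 arrays of 1 group or more and measured on all 6. Levels were quantile-normalized within each dye. KO over WT in HSCs and WT MPPs over WT HSCs were tested with limma on all 6 arrays (lmFit, eBayes) and adjusted by Benjamini-Hochberg over 44640 probes. With 6.37 and 6.23 total degrees of freedom, the p-values reflect only how far these samples scatter, and a sign-flip permutation of 3 arrays cannot go below 0.25. List genes are counted by their brightest kept probe, and 1 gene of the B cell list is counted but not shown or reported singly here. All members are named, with up to 4 genes of each list that have the largest ratio or WT difference (all of lists of 6 or fewer). A few more are named for their role, or for means near 0, of at least 1 or against the median of their list, after their values were seen. Up to 5 genes most like Ebf1 and Pax5 are named too. The fit was tested on simulated data, and 15 other settings were tried. Members and lists were chosen with earlier results of these data known. Files were read with data.table (version 1.17.8) and jsonlite (2.0.0).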

Additional observations from a re-analysis of the deposited data

Results flagged for a closer look

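The exon-spanning Pax5 probe (A_51_P122855) was singled out because all 3 of its MPP ratios were above 0, with a mean log2 KO over WT ratio of 1.90, and all 3 of its HSC ratios below 0, with a mean of -0.33. The difference between the populations was not tested, since it contains the ratio that chose the members. The other Pax5 probe averaged 3.91 on the MPP arrays and -0.12 on the HSC arrays, where 1 of 3 ratios was above 0.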

How the results depend on the processing

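In HSCs 0 probes were called and no member passed under any setting run, and the MPP median over the kept member probes ran from 0.86 without MPP 3 to 1.45 with the scanner's processed values. Median centring moved the median of all probes by 0.19 in MPPs and 0.21 in HSCs and turned 3 HSC ratios, Pax5 A_55_P2126394 to 0.21, Tcf3 A_51_P394471 to 0.019 and Lef1 A_51_P420400 to 0.0088. The scanner's processed values turned Foxo1 A_51_P138044 to 0.051 in HSCs and Foxo1 A_52_P453884 to 0.61 in the WT comparison, and put Ebf1 at 1.78 in HSCs and 2.34 in the WT comparison. With 1 array left out, HSC ratios ran from -0.22 to 0.57 for Tcf3 A_55_P1975354, -0.29 to 0.087 for Pou2af1, -0.90 to 0.20 for Bach2, -0.094 to 0.011 for Lef1 A_55_P2076871 and -0.49 to 1.14 for Irf4. WT differences then ran from -0.29 to 0.85 for Pax5 A_55_P2126394, -0.91 to 1.22 and -2.06 to 0.64 for the Foxo1 probes A_51_P138044 and A_52_P453884, and -0.093 to 1.10 for Bach2.

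The count of 126 probes in the WT comparison was 63 with no filter, 78 with every probe above background in both channels of all arrays, and 0 to 105 with 1 array left out. With slide row as a term the WT difference rested on MPP 1 alone against the HSC arrays. It turned to -0.19 for Pax5 A_55_P2126394, -0.20 for Tcf3 A_51_P394471, -1.30 for Foxo1 A_51_P138044 and -0.64 for Bach2. For Lef1 A_51_P420400 and A_55_P2076871 it turned to -0.011 and -0.18. A replicate block left 0 calls. Deviations of same-numbered WT samples correlated at 0.160, 0.0444 and 0.114, so the numbers were not taken to pair the samples, although each sample correlated best with its own number. The cause of these changes was not tested. Dim WT signal limits Ebf1, both Foxo1 probes and Lef1 A_55_P2076871 in HSCs. It also limits Bach2 A_66_P114768, which was not tested.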
